A study of Rattus norvegicus with 30 samples.

Results

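Aminoacyl-tRNA synthetases are the enzymes that join each amino acid to its own tRNA, the step that fixes which amino acid a codon brings into a protein. They were followed here in primary rat hepatocytes given phenobarbital. Members were all probe sets whose annotation gave 1 gene symbol made of a capital letter, "ars" and nothing, 1 or 2, together with Eprs1, Farsa and Farsb. Where a gene had several, the brightest one by mean log2 signal over the 30 arrays stood for it. The rule used no difference between groups, and it found 32 genes among the 14217 genes with a symbol of their own, read by 50 of 31099 probe sets.

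Of the 32, 19 encode cytosolic enzymes (Aars1, Cars1, Eprs1, Farsa, Farsb, Gars1, Hars1, Iars1, Kars1, Lars1, Mars1, Nars1, Qars1, Rars1, Sars1, Tars1, Vars1, Wars1 and Yars1). The other 13, whose symbols end in 2, encode mitochondrial enzymes (Aars2, Cars2, Ears2, Fars2, Hars2, Iars2, Nars2, Rars2, Sars2, Tars2, Vars2, Wars2 and Yars2). All 19 cytosolic genes and 11 of the 13 mitochondrial genes passed the filter on low signal. Aars2 and Nars2 did not reach its level, a signal of 384, in any group and were not tested. Lars2, Mars2 and Pars2 had no probe set that met the rule and were not analysed here.

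The study set 6 groups of 5 wells against each other: vehicle, 300 µM and 3000 µM phenobarbital, each harvested 24 h and 48 h after dosing. The vehicle is called water in one label and culture medium in another. All wells held commercially frozen hepatocytes of male Sprague Dawley rats, grown on collagen beneath Matrigel and dosed on the third day of culture. The labels call the wells independent cultures but number no animal or donor, so every p-value below measures the spread between wells. Phenobarbital is a barbiturate that induces drug-metabolising enzymes of the liver through the receptor CAR.

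As background, each amino acid has its own synthetase, and most cells keep separate sets for the cytosol and for mitochondria, both encoded in the nucleus. Gars1 and Kars1 are exceptions, since each encodes the enzyme of both compartments. Several cytosolic synthetases sit together in a multisynthetase complex held by the scaffold proteins Aimp1, Aimp2 and Eef1e1, and the others work free. Many cytosolic synthetase genes are known targets of the transcription factor ATF4, which is made when amino acids run short or the endoplasmic reticulum is stressed, and which pairs with C/EBP proteins on DNA elements with the core TGATGNAA (N is any base).

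This core was searched on both strands in the RefSeq promoters of assembly GRCr8, each reaching from 250 bases before the gene's start to 50 bases after it. Symbols matched 30 of the 32 genes, the exceptions being Gars1 and Rars1. The core was present in 7 of 17 cytosolic promoters (41.2%), in 0 of 13 mitochondrial ones and in 1332 of all 33469 promoters (3.98%). One match for each of these genes is shown because all of them lie in promoters of cytosolic genes, with up to 10 flanking bases and the core in capitals. Each is read 5′ to 3′ on the strand that spells the core:
Aars1: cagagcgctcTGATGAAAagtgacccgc
Cars1: ttccagaatcTGATGCAAccgcggcgcc
Iars1: cgtctggaggTGATGCAAtactgacagt
Mars1: gagcccacgcTGATGCAAccggaacggg
Nars1: ctaggtgatcTGATGCAAcgcttcagtc
Tars1: gctaaccagcTGATGCAAcgggacgcca
Yars1: cgagctcagcTGATGCAAcctg

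The matches of Iars1 (chr17:15193659-15193686), Mars1 (chr7:65023753-65023780), Nars1 (chr18:60275779-60275806) and Tars1 (chr2:62114812-62114839) began 24, 17, 14 and 27 bases before the annotated start. Those of Aars1 (chr19:55908481-55908508), Cars1 (chr1:208225335-208225362) and Yars1 (chr5:146820191-146820212) began at bases 10, 18 and 39 of the transcript. Of these windows those of Nars1 and Aars1 are read on the minus strand and the others on the plus strand. The windows of Hars1 and Hars2 overlap on opposite strands, since the cytosolic and the mitochondrial histidine enzyme are encoded head to head on chromosome 18.

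Among cytosolic genes with a promoter in the table, 4 of the 12 that were higher at 3000 µM at either time held the core, as did 3 of the 5 that were not. These counts are too few to read a difference from. Sars1, which rose most at 48 h, held no match. The 250 bases before its start (chr2:198769366-198769615, minus strand) are given to show a promoter without these letters:
Sars1: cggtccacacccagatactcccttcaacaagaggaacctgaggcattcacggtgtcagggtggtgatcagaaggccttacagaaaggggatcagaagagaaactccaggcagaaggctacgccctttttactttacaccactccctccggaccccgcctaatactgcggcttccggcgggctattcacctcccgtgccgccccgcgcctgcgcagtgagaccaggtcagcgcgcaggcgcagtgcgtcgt
A match describes the letters in this window and not a bound site, and no match says nothing of sites elsewhere.

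At 3000 µM for 24 h, 11 of 19 cytosolic synthetase genes were higher than vehicle and none was lower. At 48 h 12 of 19 were higher and again none was lower. Of the mitochondrial genes tested, 2 of 11 were higher and 1 was lower at 24 h, and 4 were higher and none lower at 48 h. A gene was called higher or lower at an adjusted p under 0.05 in limma's moderated test, adjusted by Benjamini-Hochberg over all 16596 probe sets tested. Over those probe sets 17.3% were called higher and 14.8% lower at 24 h, and 19.5% higher and 19.9% lower at 48 h. The cytosolic shares, 57.9% and 63.2%, lay above that background.

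The changes were small. The median log2 change of the 19 cytosolic genes was 0.27 at 24 h and 0.29 at 48 h, against 0.0093 and -0.00083 over all probe sets tested. The mitochondrial median was -0.0081 at 24 h and 0.17 at 48 h. The group means compared at 24 h and at 48 h came from different arrays. Their errors came from the same fit to all groups, so the calls at 24 h and 48 h are not independent. Leaving out an array of 48 h changed the call of Rars1 at 24 h, and leaving out an array of 24 h changed that of Hars1 at 48 h. Both times called Aars1, Eprs1, Farsb, Gars1, Hars1, Kars1, Lars1, Nars1, Sars1 and Yars1 higher. These were 10 of the 11 cytosolic genes of 24 h (90.9%) and of the 12 of 48 h (83.3%). The same overlap over all probe sets is not given here, so these shares cannot be read as particular to synthetase genes. Fars2 and Yars2 were the mitochondrial genes called higher at both times.

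**Figure D1:**
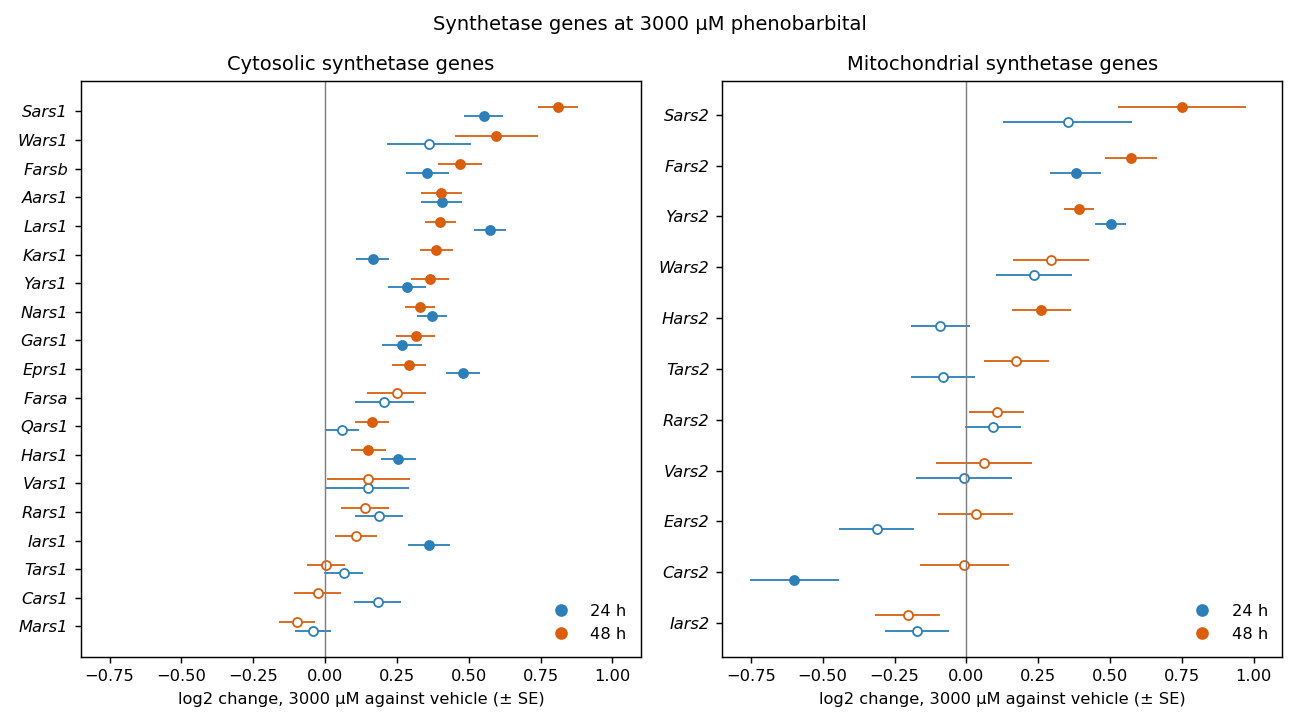
Log2 change (x axis, ± SE) of each synthetase gene tested at 3000 µM phenobarbital against vehicle, 24 h in blue and 48 h in orange, with cytosolic genes on the left and mitochondrial genes on the right. Filled points passed the test. Cytosolic points lie mostly to the right of 0, Sars1 farthest at 0.81, and Cars2 at 24 h is the filled point on the left, at -0.60.

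Sars1, the cytosolic serine enzyme, had the largest change of the 32 genes at 48 h. At 24 h its signals were 5356, 6410, 6307, 6205 and 5918 in vehicle wells and 8721, 8788, 8925, 8605 and 9122 at 3000 µM. At 48 h vehicle wells gave 7637, 7527, 6602, 6616 and 6455, and wells at 3000 µM gave 11679, 13790, 12158, 11385 and 12003. At both times every treated well lay above every vehicle well. The rise was 1.47-fold at 24 h (log2 0.55 ± 0.069 SE, adjusted p = 1.34e-07) and 1.75-fold at 48 h (0.81 ± 0.069, adjusted p = 2.76e-11). The step from 24 h to 48 h did not pass the test of the difference (0.26 ± 0.098, adjusted p = 0.132).

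Among the 7 genes of the multisynthetase complex (Eprs1, Iars1, Kars1, Lars1, Mars1, Qars1 and Rars1), 4 were higher at each time. Over all probe sets 17.3% were higher at 24 h and 19.5% at 48 h. Lars1 charges leucine tRNA and also senses leucine for the growth kinase mTORC1. Its vehicle wells read 7346, 6963, 5913, 7955 and 7283 at 24 h, and its wells at 3000 µM read 10168, 10887, 10182, 10631 and 10677. No wells overlapped, and the rise was 1.49-fold (log2 0.57 ± 0.054, adjusted p = 4.39e-10), the largest rise of the 30 genes tested at this time. At 48 h the vehicle wells had themselves moved up, to 8969 at the lowest, 9018 at the median and 9296 at the highest, against 11417, 11946 and 12570 at 3000 µM. The groups were again apart, and the rise was 0.40 ± 0.054 (adjusted p = 2.85e-07).

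Eprs1 encodes the single protein that charges both glutamate and proline tRNA. At 24 h the vehicle wells gave 10588, 8440, 9375, 9272 and 8987, wells at 300 µM gave 11058, 10583, 11140, 11884 and 11269, and wells at 3000 µM gave 11483, 12621, 14128, 12973 and 13802. Eprs1 was the only synthetase gene past the test at 300 µM against vehicle at 24 h, with 0.26 ± 0.059 (adjusted p = 0.0078). The lowest well at 300 µM lay just below the highest vehicle well, and 4 of 5 lay above it. At 3000 µM it was 1.39-fold above vehicle with no overlap (0.48 ± 0.059, adjusted p = 9.65e-08). At 48 h wells at 3000 µM gave 12518 to 15805 and vehicle wells 10738 to 11618, a rise of 0.29 ± 0.059 (adjusted p = 0.000152), while 300 µM gave 0.022 ± 0.059 (adjusted p = 0.939). The call at 300 µM did not hold when array medians were centred (0.27, adjusted p = 0.0888) or on the gene's second probe set (0.20, adjusted p = 0.185).

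The other members of the complex split. Kars1, the lysine enzyme of both compartments, rose by 0.17 ± 0.057 at 24 h (adjusted p = 0.0244) and 0.39 ± 0.057 at 48 h (adjusted p = 1.47e-06). Its 24 h call was lost without vehicle well 1 (0.14, adjusted p = 0.073) or vehicle well 4 (0.16, adjusted p = 0.0532). Iars1, for isoleucine, rose at 24 h (0.36 ± 0.074, adjusted p = 0.000218) and at 48 h stood at 0.11 ± 0.074 (adjusted p = 0.259). One of its 48 h wells at 3000 µM, well 2, read 6753 where the others read 9155 to 10186, and without it the change was 0.21 (adjusted p = 0.00198). Qars1, for glutamine, rose at 48 h (0.16 ± 0.059, adjusted p = 0.0281) and stood at 0.059 ± 0.059 at 24 h (adjusted p = 0.494). Its 48 h call was lost without well 4 at 3000 µM (0.10, adjusted p = 0.122) and without vehicle well 3 or 5 (0.15 each, adjusted p = 0.0621 and 0.0615). The call was also lost under quantile normalization (0.15, adjusted p = 0.0572) and with only the compared groups in the fit (0.16, adjusted p = 0.124).

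Rars1 and Mars1, for arginine and methionine, passed the test at neither time. Rars1 stood at 0.19 ± 0.083 at 24 h (adjusted p = 0.0831) and 0.14 ± 0.083 at 48 h (adjusted p = 0.196). Well 4 of the 48 h group at 3000 µM gave 6788 for it where the other wells gave 10011 to 12045. That array is one of 2 that stood apart in their hybridization controls, and without it Rars1 was higher at 48 h (0.27, adjusted p = 7.38e-05) and at 24 h (0.19, adjusted p = 0.00271). Mars1 stood at -0.042 ± 0.063 and -0.098 ± 0.063, the lowest values of any cytosolic gene, and without both arrays it was lower at 48 h (-0.12, adjusted p = 0.0223).

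Of the 12 free cytosolic genes, 7 were higher at 24 h and 8 at 48 h, beside 17.3% and 19.5% of all probe sets. Aars1, the alanine enzyme, read 15890, 17338, 16640, 15805 and 14616 in vehicle wells at 24 h and 19976, 21385, 22406, 20391 and 22080 at 3000 µM. At 48 h vehicle wells read 15221, 16677, 14655, 16558 and 17840, and wells at 3000 µM read 22558, 20760, 21410, 17871 and 24952. The groups did not overlap, although at 48 h well 4 at 3000 µM, on one of the arrays that stood apart, lay just above the highest vehicle well. The rise was 0.40 ± 0.070 at both times (1.32-fold, adjusted p = 2.56e-05 and 1.76e-05).

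Farsb, the beta subunit of the phenylalanine enzyme, read 6666, 8092, 6988, 6554 and 5991 in vehicle wells at 48 h and 8807, 10200, 8927, 9289 and 10058 at 3000 µM, with no overlap. It rose by 0.36 ± 0.076 at 24 h (adjusted p = 0.000414) and 0.47 ± 0.076 at 48 h (adjusted p = 7.12e-06). Farsa, the alpha subunit of the same enzyme, stood at 0.21 ± 0.10 and 0.25 ± 0.10 and passed at neither time (adjusted p = 0.13 and 0.0526). Farsa passed at 48 h without vehicle well 2 (0.31, adjusted p = 0.0222), vehicle well 3 (0.28, adjusted p = 0.042) or well 3 at 3000 µM (0.29, adjusted p = 0.035), among others. Whether the subunits differ was not tested.

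Wars1, the tryptophan enzyme and a known interferon target, was the free gene with the second largest change at 48 h. Its 48 h vehicle wells read 2427, 2593, 2314, 2349 and 1971, and its wells at 3000 µM read 2835, 3211, 3879, 4028 and 3744. All treated wells lay above the vehicle wells, and the rise was 1.51-fold (0.60 ± 0.15, adjusted p = 0.00126). At 24 h the wells were also apart, vehicle at 1371 to 2130 and 3000 µM at 2181 to 3421, but the change of 0.36 ± 0.15 did not pass (adjusted p = 0.0556). It did pass with array medians centred (0.43, adjusted p = 0.0283) or without vehicle well 4 (0.40, adjusted p = 0.047).

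Nars1, for asparagine, rose by 0.37 ± 0.052 at 24 h (adjusted p = 9.36e-07) and 0.33 ± 0.052 at 48 h (adjusted p = 4.07e-06). Yars1, for tyrosine, rose by 0.29 ± 0.066 and 0.36 ± 0.066, and Gars1, for glycine, by 0.27 ± 0.068 and 0.32 ± 0.068. Hars1, for histidine, rose by 0.25 ± 0.060 at 24 h (adjusted p = 0.00119) and by 0.15 ± 0.060 at 48 h, where its adjusted p of 0.0456 crossed the threshold under 17 of 40 alternatives. Cars1, Tars1 and Vars1, for cysteine, threonine and valine, passed at neither time, although Cars1 did at 24 h without the 48 h well 4 at 3000 µM, (0.18, adjusted p = 0.0268). Tars1 was the flattest gene of the 32, with 0.065 ± 0.068 and 0.0030 ± 0.068 and group means that spanned 1.05-fold over the 6 groups.

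**Figure D2:**
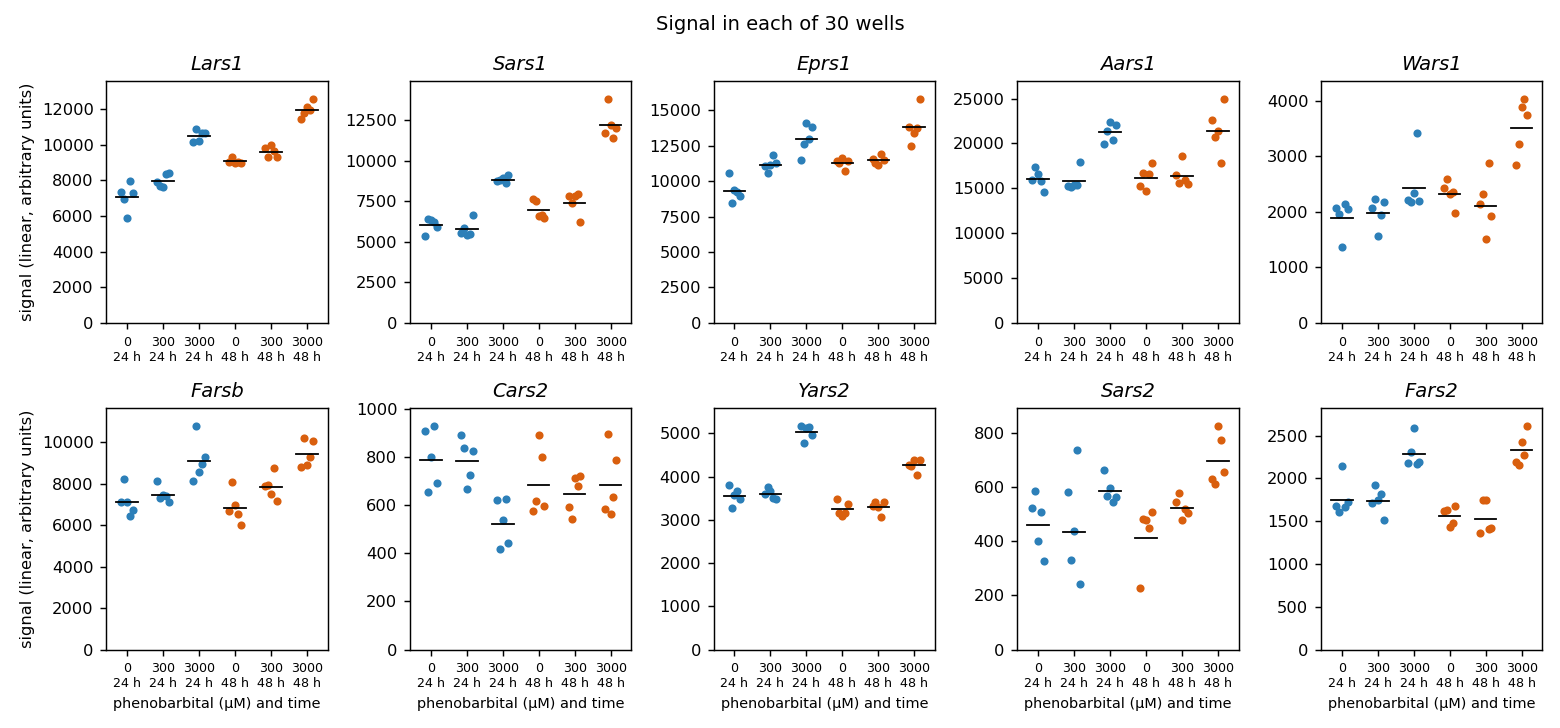
Signal (linear y axis from 0, scale different in each panel) of 10 synthetase genes in each of the 30 wells, by phenobarbital dose in µM and time on the x axis, 24 h in blue and 48 h in orange. Points are wells and bars are geometric means of 5 wells. Sars1 at 3000 µM lies above all other wells of the same time, and Cars2 is low at 3000 µM at 24 h alone, with a mean of 521 against 789 in vehicle.

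Mitochondrial genes were called in both directions at 24 h, 18.2% higher and 9.09% lower. These shares were near the 17.3% and 14.8% over all probe sets. At 48 h 36.4% were higher, beside 19.5% over all. Yars2, the mitochondrial tyrosine enzyme, read 3800, 3273, 3570, 3667 and 3491 in vehicle wells at 24 h and 5182, 4778, 5130, 5154 and 4953 at 3000 µM. The groups were far apart, and the rise was 1.42-fold (0.50 ± 0.053, adjusted p = 4.83e-09). At 48 h it was 0.39 ± 0.053 (adjusted p = 3.27e-07). Fars2, for phenylalanine, read 1624, 1632, 1432, 1479 and 1672 in 48 h vehicle wells and 2195, 2157, 2423, 2280 and 2619 at 3000 µM. It rose by 0.57 ± 0.090 at 48 h (1.49-fold, adjusted p = 3.82e-06) and by 0.38 ± 0.090 at 24 h (adjusted p = 0.00121).

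Sars2, the mitochondrial serine enzyme, is a dim probe set near the filter level. Its 48 h vehicle wells read 228, 484, 480, 448 and 508 and its wells at 3000 µM read 631, 612, 827, 774 and 656. No wells overlapped, and the rise was 1.68-fold with a wide error (0.75 ± 0.22, adjusted p = 0.00715). At 24 h it stood at 0.35 ± 0.22 (adjusted p = 0.246).

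Cars2, the mitochondrial cysteine enzyme, was the synthetase gene called lower. At 24 h its vehicle wells read 909, 655, 801, 931 and 691, and its wells at 3000 µM read 620, 417, 539, 625 and 441. All treated wells lay below the vehicle wells, and the change was -0.60 ± 0.15 (adjusted p = 0.00282). At 48 h vehicle wells read 575, 618, 892, 801 and 597 and treated wells 584, 896, 564, 635 and 786, which overlapped throughout (-0.0079 ± 0.15, adjusted p = 0.977). The difference between the times, 0.59 ± 0.22, did not pass its own test (adjusted p = 0.12).

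Hars2, the partner of Hars1 across the shared start region, was called higher at 48 h (0.26 ± 0.10, adjusted p = 0.0441). The call was lost without the array that stood apart (0.17, adjusted p = 0.186) and under 11 other alternatives, such as without vehicle well 2 (0.20, adjusted p = 0.149), and the gene's second probe set gave -0.098 (adjusted p = 0.553). Rars2 stood at 0.11 ± 0.096 at 48 h (adjusted p = 0.418), with the same array lowest at 1723 against 2666 to 2921, and without that array it was higher (0.24, adjusted p = 0.00507). Wars2 likewise gained a call as higher (0.36, adjusted p = 0.0368) and Iars2 one as lower (-0.32, adjusted p = 0.0145). Without both arrays that stood apart the counts at 48 h were 12 higher and 1 lower among cytosolic genes and 5 higher and 1 lower among mitochondrial genes. Ears2, for glutamate, stood at -0.31 ± 0.13 at 24 h (adjusted p = 0.0659) and passed without vehicle well 3 or 4 (-0.37 each, adjusted p = 0.0366 and 0.0368), and Vars2, for valine, stood at -0.0081 ± 0.17 and 0.061 ± 0.17. Without both arrays the counts at 24 h were 12 cytosolic genes higher and none lower, and 2 mitochondrial genes higher and 1 lower.

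At 300 µM little of this was seen. Eprs1 at 24 h was 1 of 19 cytosolic genes past the test, beside 1.72% of all probe sets called higher and 1.27% called lower. At 48 h none of the 30 synthetase genes tested passed in limma's test, beside 0.813% higher and 0.723% lower over all. Unadjusted, 3 of the 30 genes had p under 0.05 at 24 h and 2 at 48 h, against 14.5% and 11.9% of all probe sets. The next gene at 24 h was Lars1, with 0.18 ± 0.054 (adjusted p = 0.0676). Its wells at 300 µM read 7622 to 8401 against 5913 to 7955 in vehicle, and it passed without vehicle well 4 (0.22, adjusted p = 0.0169) or the 48 h well 4 at 3000 µM (0.18, adjusted p = 0.0448). Aars1 stood at -0.023 at 300 µM at 24 h, with an interval of 2 SE from -0.16 to 0.12 that lies below its change at 3000 µM. Tars2 had the largest negative change of the genes tested at 48 h, -0.31 ± 0.11 (adjusted p = 0.197), and passed without well 1 at 300 µM (-0.41, adjusted p = 0.0494).

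**Figure D3:**
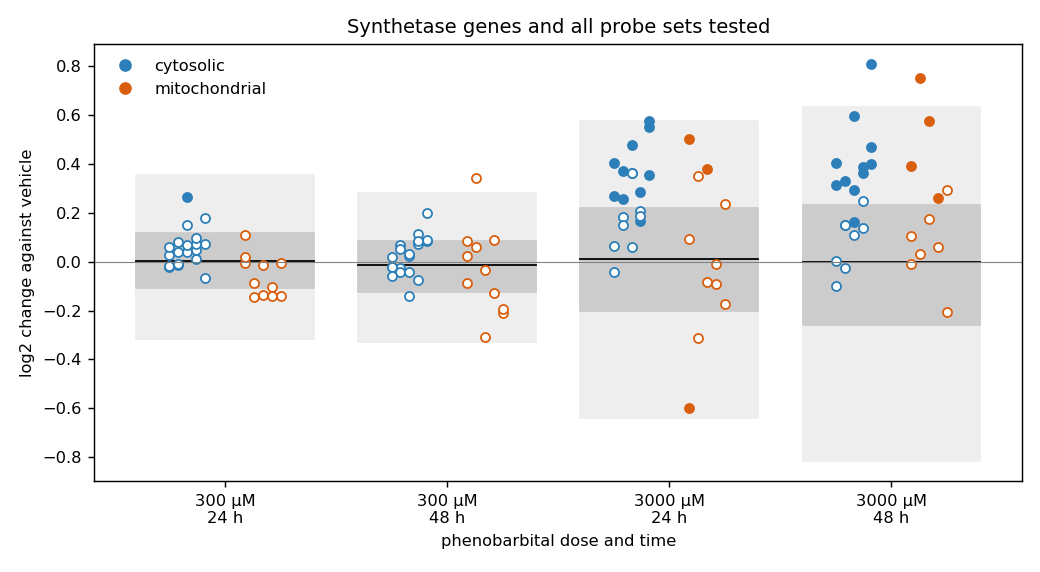
Log2 change against vehicle (y axis) of cytosolic (blue) and mitochondrial (orange) synthetase genes at each dose and time (x axis). Filled points passed the test, the black line is the median of all 16596 probe sets tested, and the dark and light grey bars span their middle 50% and 90%. At 300 µM Eprs1 at 24 h is the filled point, while at 3000 µM most cytosolic points lie above the black line.

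The doses were also set against each other. These comparisons use the same 3000 µM wells as those against vehicle. At 24 h 10 of 19 cytosolic genes were higher at 3000 µM than at 300 µM and none was lower, beside 13.9% higher and 12.2% lower over all probe sets. At 48 h 13 of 19 were higher and none lower, beside 17.9% and 16.9%. Of mitochondrial genes 2 were higher and 1 lower at 24 h, and 4 were higher and none lower at 48 h. Sars1 differed by 0.62 ± 0.069 at 24 h and 0.72 ± 0.069 at 48 h (adjusted p = 2.87e-08 and 5.17e-10). Wars1 differed by 0.74 ± 0.15 at 48 h (adjusted p = 0.000135), the largest value of any member tested there. Tars2 and Wars2 were called in this comparison at 48 h (0.48 ± 0.11 and 0.49 ± 0.13, adjusted p = 0.000902 and 0.00386) and not against vehicle, but on their second probe sets they gave -0.27 and 0.26 (adjusted p = 0.228 and 0.405). The second probe set of Wars1 gave 0.24 (adjusted p = 0.173).

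With time alone few members passed the test. Unadjusted, 10 of the 30 genes tested had p under 0.05 in limma's test, against 20.4% of all probe sets. In vehicle wells 2 of 19 cytosolic genes were higher at 48 h than at 24 h and none was lower, beside 4.05% higher and 3.15% lower over all probe sets. These were Lars1 (0.36 ± 0.054, adjusted p = 2.62e-05) and Eprs1 (0.28 ± 0.059, adjusted p = 0.00239). Without the 48 h well 4 at 3000 µM the count was 5. The 48 h vehicle wells of Lars1 lay at 8969 or above and the 24 h wells at 7955 or below. No mitochondrial gene passed, and their median was -0.15 against 0.099 for the cytosolic genes and 0.026 over all.

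Whether a dose acted differently at 48 h than at 24 h was tested as the difference of its effects. No synthetase gene passed in limma's test, for 300 µM (lowest adjusted p = 0.476, Eprs1) or 3000 µM (lowest adjusted p = 0.118, Kars1). Over all probe sets 0% and 4.15% passed. Unadjusted, 1 and 7 of 30 synthetase genes had p under 0.05, against 7.54% and 18.9% of all probe sets, and eBayes without trend and robust estimation also called 0. So the differing calls at the 2 times for Cars2, Iars1, Qars1, Sars2, Hars2 and Wars1 are not shown to be differences between times.

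Genes with further probe sets were read more than once. For 13 genes, 16 other probe sets were tested, of which 12 had the sign of the chosen one at 24 h and 12 at 48 h at 3000 µM. Of all probe sets 17.3% were called higher and 14.8% lower at 24 h, and 19.5% and 19.9% at 48 h. Beside these shares, 3 of the 16 other probe sets were called at 24 h, all higher, for Eprs1 (0.50), Hars1 (0.41) and Wars1 (0.38). At 48 h those of Gars1 (0.45) and Eprs1 (0.32) were called higher, and that of Tars2 was called lower at -0.55 (adjusted p = 0.00873) where the chosen one stood at 0.17 ± 0.11 (adjusted p = 0.233). No direction can therefore be given for Tars2. The counts of other probe sets called higher are not read as above the shares over all probe sets. With the second brightest probe set in place of the brightest, for each gene that had one, 7 of 18 cytosolic genes were higher at each time. Aars1, Farsa, Nars1, Qars1, Rars1, Sars1, Tars1 and Yars1 had no further probe set and kept the same one, so their calls could not change. The 7 included Aars1, Nars1, Sars1 and Yars1 at both times and Qars1 at 48 h. Kars1 gave no value there, since its second probe set lay below the filter level, and so left the counts at both times untested. The calls that missed the threshold were those of Farsb at both times (0.29 and 0.32, adjusted p = 0.243 and 0.17), Lars1 at both times (0.54 and 0.47, adjusted p = 0.062 and 0.0905), Gars1 and Iars1 at 24 h (0.31 and 0.25, adjusted p = 0.0526 and 0.366), and Wars1 and Hars1 at 48 h (0.27 and 0.19, adjusted p = 0.107 and 0.214). All of these kept the sign of the brighter probe set, and Wars1 at 24 h gained a call.

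**Figure D4:**
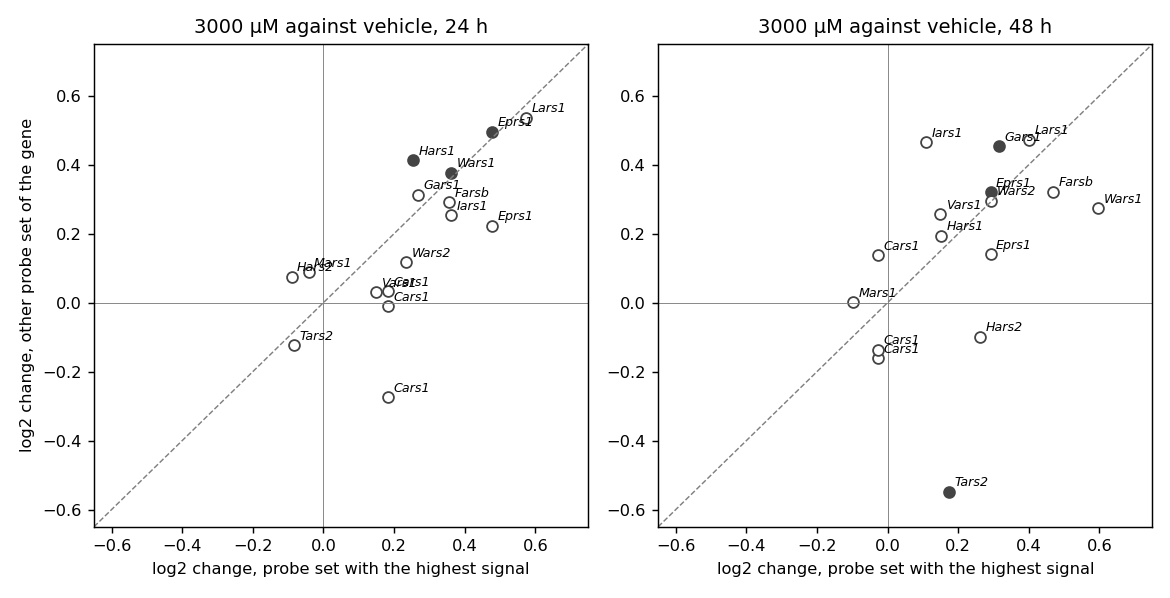
Log2 change at 3000 µM against vehicle of the other probe sets of a gene (y axis) against that of the probe set with the highest signal (x axis), at 24 h and 48 h. Filled points are other probe sets that passed the test and the dashed line marks equal change. Most points lie right of and above 0, and Tars2 at 48 h is low at -0.55.

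The 12 synthetase genes listed as known ATF4 targets (Aars1, Cars1, Eprs1, Gars1, Iars1, Lars1, Mars1, Nars1, Sars1, Tars1, Wars1 and Yars1) had 8 members higher at 3000 µM at each time. Of the 7 other cytosolic genes 3 were higher at 24 h and 4 at 48 h. The shares higher over all probe sets were 17.3% at 24 h and 19.5% at 48 h. Medians were 0.36 and 0.32 for the listed genes and 0.19 and 0.16 for the others. Whether the lists differ was not tested.

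Genes that work beside the synthetases were taken from lists. Their counts stand beside the shares over all probe sets at 3000 µM, 17.3% higher and 14.8% lower at 24 h and 19.5% and 19.9% at 48 h, and no list was tested against them. All 3 scaffold genes of the multisynthetase complex were tested, of which 2 were higher at 24 h and 3 at 48 h at 3000 µM: Eef1e1 (0.55 ± 0.067 and 0.45 ± 0.067), Aimp1 (0.29 and 0.38) and Aimp2 at 48 h (0.20). Of 12 genes for tRNA export, processing and proofreading, 5 were higher and 1 was lower at each time. Xpot, which carries tRNA out of the nucleus, rose by 0.50 and 0.37, and Rtcb, the ligase that joins spliced tRNA pieces, by 0.40 and 0.55. Prorsd1, named for its likeness to an editing domain of the proline enzyme, fell by 0.39 and 0.45 on the log2 scale. Aarsd1, an alanyl-tRNA editing protein, was higher at 48 h by 0.39.

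Of 12 genes for charging and translation in mitochondria, 4 were higher and 1 was lower at each time, beside 17.3% higher and 14.8% lower over all probe sets at 24 h and 19.5% and 19.9% at 48 h. Gatc and Qrsl1, subunits of the enzyme that makes mitochondrial glutaminyl-tRNA, rose by 0.39 and 0.67 and by 0.34 and 0.35. Mtrf1, a release factor gene, rose by 1.94 and 0.68, from a 24 h vehicle mean of 7.82 on the log2 scale, which lies under the filter level of 8.58 and makes the first value imprecise. Mtif2, an initiation factor, rose by 0.63 at 24 h. Of 7 cytosolic elongation factor genes 2 were higher and 1 was lower at 24 h, and 4 were higher at 48 h. Eef1d and Eif5a rose at both times (0.23 and 0.49, 0.17 and 0.33), Eef2 was lower at 24 h (-0.23), and Eef1b2 and Eef1g were higher at 48 h (0.42 and 0.36).

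The wider ATF4 list of 35 tested genes, regulators and genes of amino acid supply, had 21 higher and 5 lower at 24 h and 19 higher and 7 lower at 48 h at 3000 µM. Over all probe sets 17.3% were higher and 14.8% lower at 24 h and 19.5% and 19.9% at 48 h, so the share lower at 48 h was near the background. Ddit3, a stress-induced transcription factor, rose by 1.29 and 2.12, Gdf15, a secreted stress signal, by 1.30 and 1.42, and Slc7a5, a leucine transporter, by 1.18 at 24 h. Sesn2, a leucine sensor, rose by 1.23 at 48 h. Atf4 itself rose by 0.34 and 0.36, and Asns, the asparagine synthetase and a textbook ATF4 target, by 0.67 and 0.42. Both were picked for their role, after their values were seen. Members of the list also moved with time alone. In vehicle wells 14 were higher at 48 h than at 24 h and 1 was lower. The shares over all probe sets in that comparison were 4.05% higher and 3.15% lower.

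The interferon list was included because Wars1 is an interferon target. Of its 9 tested members 3 were higher and 1 was lower at 24 h, and 4 were higher and 1 was lower at 48 h, beside 17.3% higher and 14.8% lower over all probe sets at 24 h and 19.5% and 19.9% at 48 h. Psmb8 and Psmb9, immunoproteasome subunits, rose by 0.78 and 0.77 at 24 h, Cxcl9, a chemokine, by 1.23 at 48 h, and Isg15, a ubiquitin-like protein, was lower (-1.07 and -1.18).

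Cell type and array quality were checked for the whole series. All 9 hepatocyte markers on the array lay above the filter level in every group, and at 3000 µM 7 of 9 were lower at 24 h and 4 of 9 at 48 h, beside 14.8% and 19.9% of all probe sets. Their median change was -0.27 at 24 h and 0.036 at 48 h, where 5 of 9 had a positive sign. In such bulk wells fewer cells of a type and less RNA per cell cannot be told apart. Of the macrophage markers Cd163, Ptprc and Adgre1 lay below the filter level in every group, and the summed signal of all 6 was 2179 to 2589 at 3000 µM and 2040 to 2586 in vehicle at 24 h, and 2184 to 3681 and 1738 to 2341 at 48 h. Of the 3 macrophage markers tested, 1 was called higher at each time, Cd68 (0.54 ± 0.18 and 0.80 ± 0.18). Of endothelial and cholangiocyte markers, 1 of 5 and 1 of 3 lay above the level in each group, and of stellate cell markers 3 or 4 of 7. Array medians lay between 348.7 and 424.9. Well 1 of the 24 h vehicle group and well 4 of the 48 h group at 3000 µM had mean hybridization control signals of 14.14 and 14.57 on the log2 scale against 13 to 13.35 on the other arrays. The part of these in the changes of the synthetase genes was not tested, beyond the values given without those arrays.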

How the data were processed

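RNA of 30 wells was measured, 1 array per well. The deposited values are linear probe set intensities that the authors made with MAS5, per the submitters' processing notes; version and target are not given in the sources used here. Each array's 2% trimmed mean was 1500.59 to 1500.67. Genes were named from the platform annotation.

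Intensities were put on the log2 scale with no constant. Probe sets whose highest group mean reached the median of all values (log2 8.58) were tested. limma 3.58.1 in R 4.3.3 fitted 6 group means (eBayes with trend and robust estimation, 2-sided, Benjamini-Hochberg within a comparison over 16596 probe sets). Members, lists and alternatives were chosen with earlier results of these data known. Single-well values were given for the 4 cytosolic and 2 mitochondrial genes with the largest called change at 3000 µM at each time and any gene called at 300 µM, and up to 3 called genes were named per list and time. Titles carry a running number in 5 sets of 6 wells with 1 well per group, whose meaning is not labelled, and these sets served in 1 alternative fit as a block. On simulated data 36% of 1.25-fold, 62% of 1.5-fold and 88% of 2-fold changes of 50 probe sets each were recovered, with 8 false calls among 16396. The changes were placed in the 24 h wells at 3000 µM, in probe sets drawn at random, and these 16396 were left unchanged. In the real comparison with vehicle 32% of probe sets were called, so these rates do not give the recovery in the data. The number of arrays limits precision. Some items are not reported here.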

Additional observations from a re-analysis of the deposited data

Results flagged for a closer look

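In 12 of 180 sets of 5 wells (6.67%) the highest or lowest well of a synthetase gene lay far from the other 4, with a gap of more than 0.71 of the whole range. Chance flags about 1 set in 20, and the 12 wells were spread over 11 arrays. High wells were Aars1 at 17964 and Farsa at 1652 and Kars1 at 8006 (300 µM, 24 h), Fars2 at 2144 and Mars1 at 11995 (vehicle, 24 h), Lars1 at 9296 (vehicle, 48 h) and Wars1 at 3421 (3000 µM, 24 h). Low wells were Iars1 at 6753 and Rars2 at 1723 (3000 µM, 48 h), Kars1 at 7570 (3000 µM, 24 h), Sars2 at 228 (vehicle, 48 h) and Wars1 at 1371 (vehicle, 24 h). The Mars1 and Rars2 wells lie on the 2 arrays that stood apart in their hybridization controls.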

How the results depend on the processing

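Each result was recomputed under 40 alternatives, 30 of which left out 1 array. Of 63 calls of a synthetase gene in a comparison, 35 held under each alternative that gave a value. Of their 2516 alternative values 2433 kept direction and side of the threshold, 81 missed the threshold and 2 changed sign. The second probe set per gene moved most counts: cytosolic genes past the test went from 11 to 7 and from 12 to 7 for 3000 µM against vehicle at 24 h and 48 h, from 10 to 6 and from 13 to 8 for 3000 µM against 300 µM, from 1 to 0 for 300 µM at 24 h and from 2 to 1 for vehicle over time, and mitochondrial genes from 4 to 2 for 3000 µM against 300 µM at 48 h. Kars1 had no second probe set above the filter level, so 18 of the 19 cytosolic genes gave a value there, and its absence is part of the drop in each comparison that had called it. Genes with no second probe set at all kept the same one, so this alternative could not alter their calls. Calls of such genes are among the 35. The second probe sets reversed Hars2 (-0.098) and Tars2 (-0.55) for 3000 µM against vehicle at 48 h and Tars2 for 3000 µM against 300 µM at 48 h (-0.27). Centring array medians gave 0 cytosolic genes for 300 µM at 24 h and 1 for vehicle over time. Without the 2 arrays that stood apart, 300 µM at 24 h called 2. Leaving out 1 array gave 1 to 2 cytosolic genes for 300 µM at 24 h, 0 to 1 mitochondrial genes for 300 µM at 48 h and 2 to 5 cytosolic genes for vehicle over time, 5 without well 4 at 3000 µM and 48 h. The title sets as a block ended the call of Hars2 at 48 h (0.26, adjusted p = 0.0544) and added Wars1 at 24 h (0.36, adjusted p = 0.0282). The cause was not tested in these cases.

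Centring array medians also moved the share of calls that were higher over all probe sets: from 53.9% to 67% for 3000 µM and from 57.5% to 67% for 300 µM at 24 h, from 52.9% to 66.9% for 300 µM at 48 h, from 53.3% to 66.6% for 3000 µM against 300 µM at 24 h, from 56.2% to 36.5% for vehicle over time and from 33.3% to 17.9% for the difference of the effects of 3000 µM. Dim probe sets such as Sars2 were the least precise: the SD between wells had a median of 0.17 on the log2 scale for mitochondrial and 0.097 for cytosolic genes.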
